A study of Drosophila melanogaster with 3 samples.

Results

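The X chromosome of Drosophila melanogaster carried 1437 of the 7896 sites at which the fusion protein CG9727-eGFP was recovered in embryos. The sites are peaks of chromatin immunoprecipitation followed by sequencing (ChIP-seq), taken from the authors' list thresholded by irreproducible discovery rate (IDR) on the dm6 genome build. Every peak that the list places on the X was used, whatever its strength, and each is represented by its summit, the base of highest enrichment that the list gives. The large autosomal arms 2L, 2R, 3L and 3R held 6449 summits together and served as the comparison, and the remaining 10 lay on the small chromosome 4.

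The study had 1 group. It consisted of whole embryos of both sexes, pooled, 0 to 24 h old, from a transgenic fly strain that stably expresses CG9727 with GFP at its C-terminus, and chromatin was sheared by sonication and precipitated with an antibody against GFP. The labels number 3 biological replicates without saying whether each had its own embryo collection, and p-values then measure a spread that may be technical. The promoter that drives the transgene is not stated in the labels, embryos of all ages and cell types were mixed, and sites of male and female embryos cannot be told apart. The targeted gene lies on 3R, so no X site checks the label of the line.

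The fly X is present once in males and in 2 copies in females. Male cells raise transcription from their single X through the MSL complex, a histone acetyltransferase assembly that contains the MOF enzyme and the non-coding RNAs roX1 and roX2, and which spreads from high affinity sites along the chromosome. Sex itself is set in the early embryo by X-linked signal elements such as sisA and sc, which switch on Sxl in females. The X also carries many developmental regulators, among them the Polycomb genes ph-p and ph-d, the segmentation gene run and the proneural genes of the achaete-scute complex.

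The windows of 101 bp around the strongest X summits are printed here because they rank among the 25 strongest of the whole genome, and because later results return to their base composition. Capitals mark any match to 8 words searched on both strands, which are spelled out further on. All sequences are from the RefSeq assembly of the dm6 build.

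First summit in lncRNA Vinr, chrX:12751074-12751174, plus strand: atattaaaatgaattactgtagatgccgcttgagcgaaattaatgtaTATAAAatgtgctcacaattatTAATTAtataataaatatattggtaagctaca
Second summit in lncRNA Vinr, chrX:12751273-12751373, plus strand: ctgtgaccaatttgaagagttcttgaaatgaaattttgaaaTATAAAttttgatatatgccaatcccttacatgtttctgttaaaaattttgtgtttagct
Ugalt promoter, chrX:2703830-2703930, plus strand: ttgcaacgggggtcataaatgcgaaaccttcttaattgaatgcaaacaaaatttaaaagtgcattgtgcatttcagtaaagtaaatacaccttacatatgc
CG32772 intron, chrX:4910306-4910406, plus strand: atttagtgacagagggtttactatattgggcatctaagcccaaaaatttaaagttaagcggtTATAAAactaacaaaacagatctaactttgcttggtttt
ph-p promoter, chrX:2137286-2137386, plus strand: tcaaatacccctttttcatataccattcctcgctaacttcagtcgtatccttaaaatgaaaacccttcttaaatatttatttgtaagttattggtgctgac
Tlk intron, chrX:3742186-3742286, plus strand: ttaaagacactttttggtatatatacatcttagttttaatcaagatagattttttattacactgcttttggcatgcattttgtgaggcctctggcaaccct

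These 6 windows were rich in A and T, with a GC content between 23.8% and 33.7%. The words they matched were TATAAA, in 3 of them, and TAATTA, in 1 of them. Across all X summits the median GC content of the window was 32.7%, against 42.6% in windows 500 bp to either side. Summits on the autosomal arms had the same median of 32.7%, with 44.6% in their flanks.

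The strongest X site was an interval of 1046 bp (X 12750691 to 12751736) with a pair of summits inside the long non-coding RNA gene lncRNA:Vinr. The nearest start site, 743 and 544 bp away, belongs to a second non-coding gene, lncRNA:CR44619. The first summit had a signal of 4135, rank 4 of the genome, and the second 3575, rank 10. Signal is the authors' enrichment value for a peak, used here to order peaks and to compare medians within a list. The first summit ranked 4 in replicates 1 and 3. Replicate 2 had no summit within 100 bp of it, its nearest lying 196 bp away, and ranked the second summit 10. Another summit, at rank 127, lay 467 bp inside lncRNA:CR44619 (X 12752078 to 12752580).

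Ugalt, which encodes a transporter of UDP-galactose, held the strongest X promoter peak. Its summit at X 2703880 lay 28 bp upstream of the transcription start site (TSS) in a head-to-head promoter, one in which start sites of a pair of coding genes diverge within 1 kb. It ranked 12, 5 and 7 in replicates 1, 2 and 3, and 7 in the thresholded list. An intron of CG32772 held the next site, 1254 bp downstream of a TSS, at ranks 20, 16 and 21 and rank 18 in the thresholded list.

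Chromatin genes followed. The Polycomb gene ph-p, a subunit of Polycomb repressive complex 1, had a summit 481 bp upstream of one of its TSSs with ranks of 21, 13 and 20, and a second in the same interval at rank 156. Its neighbour and paralogue ph-d had its strongest summit 839 bp upstream, at ranks 44, 86 and 66. An intron of Tlk, the gene of the Tousled-like kinase, which acts on histone chaperones, held a summit 2339 bp inside the gene that ranked 23, 22 and 30. The strongest site of each of these 3 genes was in the highest 100 of every replicate, and the ranks of ph-d varied most. An intron of Smr, the gene of a corepressor, held the summit at rank 98, whose nearest TSS, 4794 bp away, is that of lncRNA:CR43963.

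The other strong sites lay at genes of mixed function. Atf3, which encodes a bZIP transcription factor, had a summit 204 bp upstream of its TSS that ranked 145, 64 and 52. A summit 276 bp from TSSs of lncRNA:enrr and of elav, the gene of a neuronal RNA-binding protein, ranked 105. A summit in the 5′ UTR of baz, the gene of the polarity protein Bazooka, ranked 114, and its nearest TSS was that of lncRNA:CR44026. TRAM, Gapdh2, which encodes a glycolytic enzyme, and brk, which encodes a repressor of Dpp target genes, took ranks 117, 125 and 129.

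**Figure D1:**
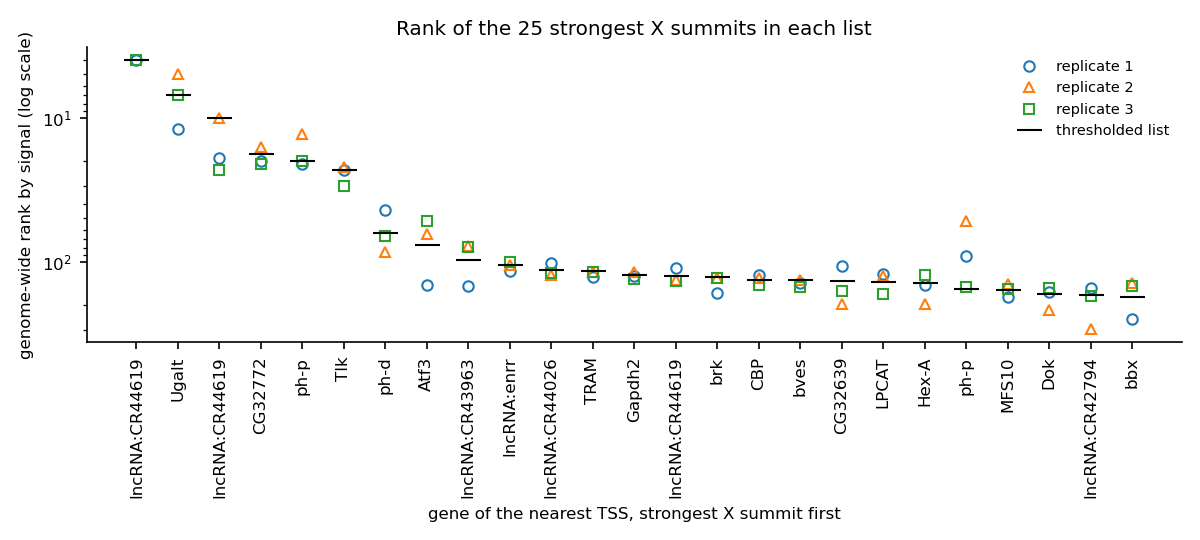
Genome-wide rank by signal (log scale, strongest at the top) of the 25 strongest X summits, named by the gene of the nearest TSS, in the thresholded list (bars) and in replicates 1, 2 and 3 (circles, triangles and squares). The first 6 lie within the strongest 30 of each replicate that holds them, and the first has no replicate 2 symbol because that replicate had no summit within 100 bp.

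The plot of these ranks shows how closely the replicates ordered the sites. The 25 were chosen by signal in a list made from these replicates, which builds in part of their high ranks and recovery. Of all 7896 summits, weak ones included, 62.5% were recovered in all 3 replicates. Of the 25 summits, 24 were recovered in all 3 and 1 in 2 replicates. Promoters within 500 bp of a TSS held 13 of them, introns 7, non-coding exons 2, intergenic sequence 2 and a 5′ UTR 1. Over all X summits, promoters held 40.8% and introns 45.6%. The nearest TSS of the 25 summits belonged to a non-coding gene in 7 cases. Those at ranks 4, 10 and 127 were all nearest to lncRNA:CR44619, and no such share is given for all X summits.

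The X had a share of strong sites that depended on how deep the list was read. It held 18.2% of all summits. Of the 10 strongest it held 3, and those at ranks 4 and 10 share the lncRNA:Vinr interval. Further down it held 6 of 25, 6 of 50, 9 of 100, 32 of 250 and 85 of 500. With the list divided by signal into 5 equal parts, 16.3% of the strongest part and 20.6% of the weakest part were on the X. The replicates gave 15.7%, 17.4% and 16.4% in the strongest part (16.5% ± 0.827, SD, n = 3) and 20.6%, 17.3% and 18.7% in the weakest (18.8% ± 1.65). Replicate 2 gave nearly the same share in both, so the decline with strength was not seen in every replicate.

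The same held for the median signal, which was 274 on the X and 284 on the autosomal arms, a ratio of 0.963. Each of the 4 arms lay above the X, between 281 and 290, a narrow spread beside the quartiles of X signal, 198 and 443. With the deposited −log10 q value in place of signal, the ratio in the thresholded list was 1.00. Within replicates the signal ratio was 0.928, 1.01 and 0.984 (0.974 ± 0.0430). The X was lower in 2 of 3, and a 2-sided exact sign-flip permutation test over the within-replicate differences gave p = 0.5. With 3 replicates this test cannot fall below 0.25, so no comparison here could pass a threshold of 0.05. Each is therefore given with its spread, the number of replicates that share its direction and the range over the 4 autosomal arms.

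Replicate support on the X was like that elsewhere. Among the 7896 strongest peaks of each replicate, a summit within 100 bp was found for 892 of the 1437 X summits (62.1%) in all 3, against 62.6% on the autosomal arms. Only 20 X summits (1.39%) were recovered in none. Replicates 1, 2 and 3 recovered 83.4%, 79.8% and 84.6% of X summits, and the difference from the autosomal arms was −0.154 ± 0.717 percentage points. The replicates themselves went into the thresholded list, which builds some of this agreement in. The sign of the difference in full recovery, −0.541 points, turned to 0.758 when summits had to match within 50 bp. Signal ranks of X summits matched between replicates gave a Spearman's rho of 0.769 to 0.828, a description over 1316 to 1357 summits that share the same libraries.

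The number of sites on the X was close to what its length gives. The X holds 17.6% of the length of the 5 large arms and chromosome 4, and had 18.2% of the summits. The strongest peaks of replicates 1, 2 and 3 included 1402, 1425 and 1421 on the X (17.9% ± 0.156). Density was 61.0 summits per Mb on the X and 59.2 on the autosomal arms, which ranged from 53.7 on 2R to 63.5 on 3L. In the replicates the X stood at 60.1 ± 0.522 and the autosomal arms at 59.3 ± 0.0971, with the X higher in 3 of 3 by a factor of 1.01 ± 0.0104.

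This ratio does not set the X apart from the other arms. Counting only the length between the first and last summit of each arm turned it to 0.903, since the assembly of 2R begins with 5128 kb and that of 3R with 4214 kb without a summit, and 3L ends with 5200 kb. The first X summit lay 176 kb from the start and the last 535 kb from the end. Per 100 TSSs the X had 36.4 summits and the autosomal arms 32.5, again within the range of 27.3 to 38.7 over the arms.

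**Figure D2:**
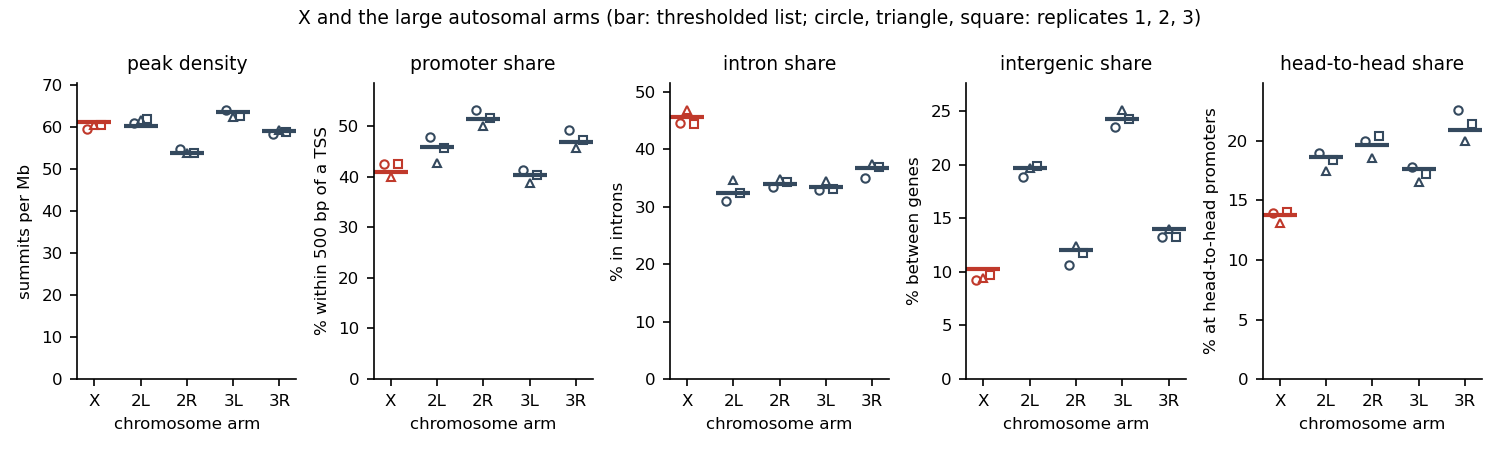
Summits per Mb and the shares of summits within 500 bp of a TSS, in introns, between genes and at head-to-head promoters, for the X (red) and each large autosomal arm (dark), in the thresholded list (bars) and the 7896 strongest peaks of replicates 1, 2 and 3 (circles, triangles, squares). The X lies inside the range of the arms in density and promoter share, above all 4 in introns at 45.6%, and below all 4 between genes at 10.3% and at head-to-head promoters at 13.8%.

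What differed between the X and the autosomal arms was where the sites lay relative to genes. Introns away from promoters held 655 X summits, 45.6%, against 34.3% on the autosomal arms. The replicates gave 44.6%, 46.9% and 44.4% on the X and 33.3%, 35.5% and 34.3% on the autosomal arms, a difference of 10.9 ± 0.712 percentage points, higher in 3 of 3 (exact sign-flip permutation p = 0.25). No autosomal arm exceeded 36.7%, and the replicate values of the X and of the autosomal arms did not overlap.

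Introns away from promoters also take up more of the X, 43.3% of its bases against 38.6%. Divided by that share, X introns held 1.05 times the summits of an even spread and autosomal introns 0.889 times. The range over the 4 arms was 0.852 to 0.927, and the replicates gave 1.05 ± 0.0318 and 0.890 ± 0.0288. With the gene bodies of coding genes alone, an alternative chosen after seeing the data, the share was 43.6% on the X and 33.9% elsewhere. The 655 summits lay in 274 genes, and 28 of them (4.27%) were inside non-coding genes only.

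Intergenic sequence showed the opposite. It held 148 X summits, 10.3%, against 17.6% on the autosomal arms, with 9.44% ± 0.257 and 17.4% ± 0.578 in the replicates. The X was lower in 3 of 3, and below every arm, whose range was 12% to 24.2%. Relative to bases the ratio was 0.456 on the X and 0.622 on the autosomal arms, and 2R, at 0.407, lay below the X. Between the first and last summit of each arm, which leaves out the summit-free end of 2R, the X was at 0.495 and the arms at 0.565 to 0.968.

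Promoters within 500 bp of a TSS held 587 X summits, 40.8%, against 45.8%. The difference in replicates was −4.16 ± 0.893 percentage points, lower on the X in 3 of 3, yet 3L had 40.3% and 2R 51.4%, so the X lay within the range of the arms. Relative to their share of bases, promoters held 3.24 times an even spread on the X and 3.32 times on the autosomal arms, with 3.30 ± 0.115 and 3.32 ± 0.128 in replicates. Between the first and last summit of each arm the direction turned, with 3.18 on the X, 2.87 on the autosomal arms and 2.63 to 3.07 over them. Small classes stood higher on the X, with 21 summits in 3′ UTRs (1.46% against 0.698%) and 5 in coding exons (0.348% against 0.140%). Both exceeded all 4 arms, and both rest on few sites.

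**Figure D3:**
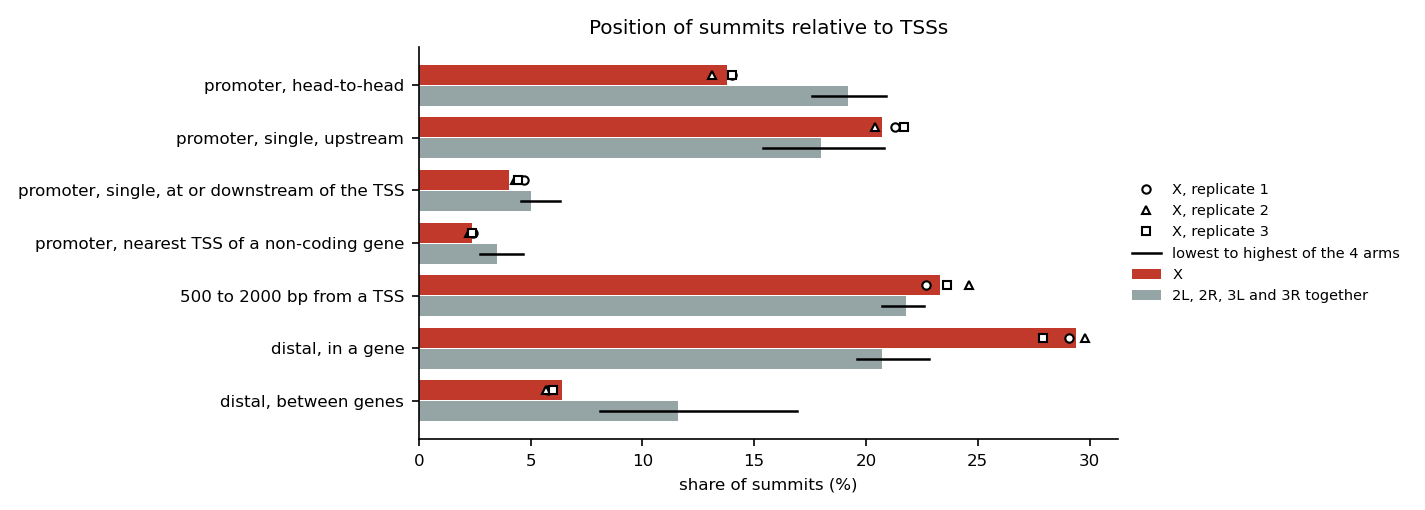
Share of summits in classes of distance to a TSS, for the X (red bars, with replicates 1, 2 and 3 as circles, triangles and squares) and the autosomal arms together (grey bars, with a line from the lowest to the highest of the 4 arms). The X had 29.4% of its summits more than 2 kb from any TSS and inside a gene, against 20.7%, and 13.8% at head-to-head promoters, against 19.2%. The first of these classes takes up 45.8% of X bases and 39.2% of autosomal ones, the other 2.36% and 2.65%.

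The classes of TSS divided the sites further. Summits more than 2000 bp from any TSS and inside a gene made up 29.4% of X sites and 20.7% of autosomal ones, with 28.9% ± 0.958 and 20.8% ± 0.789 in replicates. Distal sites between genes made up 6.40% against 11.6%. Both differences had one direction in 3 of 3 replicates and lay outside the range of the arms. Sites 500 to 2000 bp from a TSS were 23.3% and 21.8%. The bases differ in the same direction for both distal classes. Distal sequence in genes is 45.8% of X bases against 39.2%, and between genes 17.9% against 22.7%.

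Head-to-head promoters held fewer of the X summits, 198 or 13.8%, against 19.2%. The replicates gave 13.7% ± 0.502 on the X and 19.2% ± 0.887 on the autosomal arms, and every arm was at 17.6% or more. Of the coding TSSs on the X, 30.0% belong to head-to-head pairs, against 32.0% on the autosomal arms and 30.9% to 32.8% on each. Single promoters with the summit upstream of the TSS were 20.7% of X sites against 18.0%, within the range of 15.4% to 20.8% over the arms.

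Counted from the TSS side, the pattern divided in the same way. A summit lay within 500 bp of 432 of 993 head-to-head coding TSSs on the X (43.5%), against 47.1% on the autosomal arms, whose range of 41.7% to 51.1% includes the X. Of single coding TSSs, 397 of 2316 had a summit (17.1%), against 14.9%, and no arm exceeded 15.2%. In replicates the single TSSs differed by 2.08 ± 0.460 percentage points and the head-to-head ones by −4.58 ± 1.62, each with 1 direction in 3 of 3. This split of the TSSs was made after seeing the data.

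Promoter summits on the X lay farther upstream. Their median position was −128 bp from the TSS, against −99.0 bp on the autosomal arms, whose range was −106 to −93.0. Replicates 1, 2 and 3 gave −116, −141 and −136 on the X and −89.0, −100 and −94.0 elsewhere, a difference of −36.7 ± 8.39 bp. At single coding promoters the medians were −187 and −145 bp, and the replicates differed by −42.8 ± 5.53 bp, with the X farther in 3 of 3. At head-to-head promoters they were −70.5 and −78.0 bp, and the X was farther in 1 of 3.

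A summit lay at a TSS of 610 of the 2196 protein-coding genes on the X, 27.8%, beside 27.0% of the 13945 coding genes tested on all arms. The autosomal arms ranged from 25.4% to 28.9%, the X was higher than them together in 2 of 3 replicates, and with a window of 200 bp the difference was −1.88 points. Genes of other types were bound in 9.40% of cases on the X and 8.75% on the autosomal arms, with 7.97% to 9.69% over the arms, and the X was higher in 1 of 3 replicates.

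Of 11 listed genes that set sex and compensate X dosage, 2 (18.2%) were bound, the same share as in each replicate, beside 27.8% of all coding genes and 9.40% of other genes on the X. Sxl, the switch gene of female development, was bound at rank 1522, 198 bp from a TSS, with 3 summits in its body. The splicing factor gene snf was bound at rank 5734. Both roX RNAs lacked a site, with the nearest summit 5960 bp from a roX1 TSS and 1471 bp from that of roX2, and so did mof, at 2873 bp. The X signal elements sisA, sc, run and upd1 were 4188, 13161, 8652 and 11044 bp from a summit, and the germline regulators ovo and otu 1508 and 3522 bp.

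Ribosomal protein genes were bound without exception. All 14 cytoplasmic ribosomal protein genes on the X had a summit within 500 bp, in every replicate, beside 27.8% of all X coding genes. The median distance from a TSS to a summit was 36.0 bp, against 4204 bp for all coding genes on the X. RpS10b ranked 257, RpL22 553, RpS5a 695 and RpS28b 709. None of the 14 was among the 25 strongest X sites.

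Chromatin and transcription genes had 12 of 21 bound (57.1%, replicates 58.7% ± 9.91), beside 27.8% of all coding genes on the X. This list, like the other gene lists, was chosen with earlier results of these data known, so its share cannot test for an excess. Besides ph-p at rank 20, the bound genes included CHES-1-like, a forkhead gene, at 495, Bap60, of the Brahma complex, at 2079, and trr, a histone H3 lysine 4 methyltransferase gene, at 3189. Bap111, Myc and mof were not bound, and 2 listed genes, Hcf and TfIIA-S, are not on the X. Tlk and Smr count as unbound, since their 12 and 9 summits lay inside the genes and not within 500 bp of a TSS.

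Patterning and signalling genes were nearer to the share of all coding genes, with 9 of 26 bound (34.6%, replicates 35.9% ± 15.5) beside 27.8%. They included sgg, the GSK3 kinase gene, at rank 378, the integrin genes mew and mys at 2050 and 4190, and oc, a head gap gene, at 3952. Dsor1, the MEK kinase gene, and Inx2, which encodes a gap junction protein, were not bound, although Dsor1 had a summit 627 bp away.

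Neural genes had 6 of 18 bound (33.3%, replicates 29.6% ± 6.42), near the 27.8% of all coding genes on the X. Bound were elav at rank 105, dnc, a phosphodiesterase gene, at 239, comt, the gene of the NSF protein, at 2050 and fne, an elav paralogue, at 3660. The summit of comt is the same as that of mew, its neighbour. Appl and Nrg, which encode the fly relative of amyloid precursor protein and neuroglian, were not bound. Within the achaete-scute complex, named here after the values were seen, ac, sc, l(1)sc and ase all lacked a site. No gene of 35 for gustatory, odorant and ionotropic receptors, odorant-binding proteins and cuticle proteins was bound, such as Cpr11A and Cpr11B, and their median distance to a summit was 12678 bp against 4204 bp for all coding genes on the X.

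**Figure D4:**
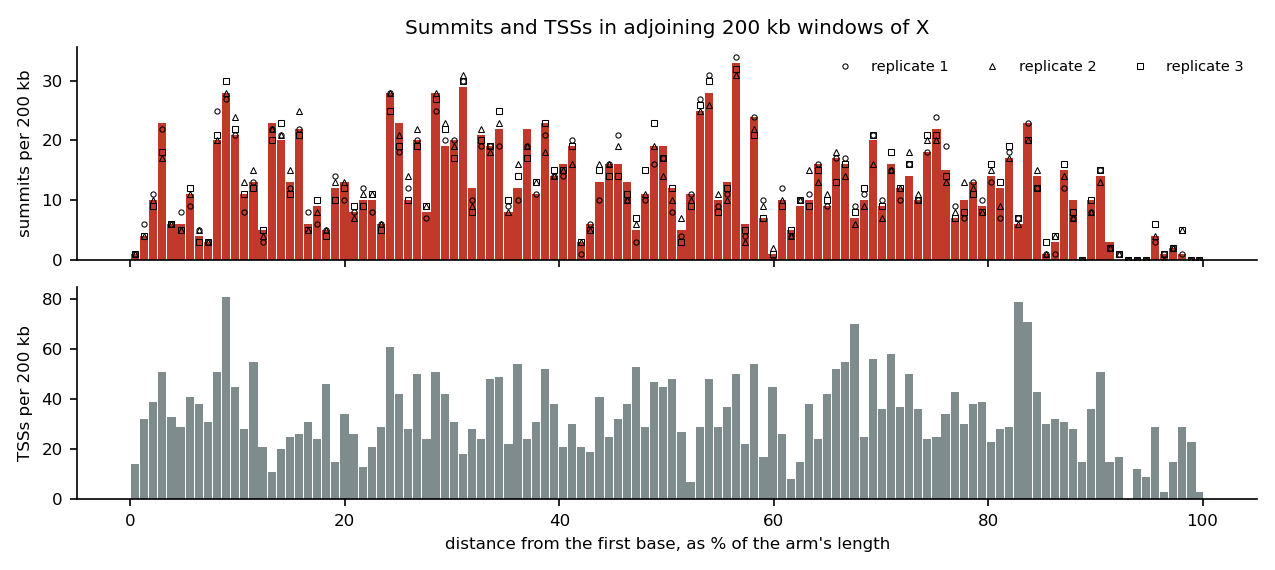
Number of thresholded summits (top, red bars, with replicates 1, 2 and 3 as circles, triangles and squares) and of TSSs (bottom, grey) in adjoining 200 kb windows, by distance from the first base of the X in percent of its length. Counts reach 33 and fall to 0 to 4 in most windows near the end, where TSSs remain.

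Sites were unevenly spread along the chromosome. The variance of the counts in 200 kb windows was 4.79 times their mean. In windows between the first and last summit of each arm, an alternative chosen after seeing the data, it was 4.68 times on the X and 3.72 to 5.59 times on the 4 autosomal arms. Neighbouring summits were a median of 5581 bp apart on the X and 5375 bp on the autosomal arms, with 4704 to 5644 bp over the arms. The middle part of X distances ran from a quartile of 1604 bp to 17016 bp, and 248 (17.3%) were under 1 kb. No pair was closer than 199 bp, and 54 summits shared an interval with another. In replicates the median was 5537 ± 123 bp on the X and 5394 ± 166 bp on the autosomal arms.

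**Figure D5:**
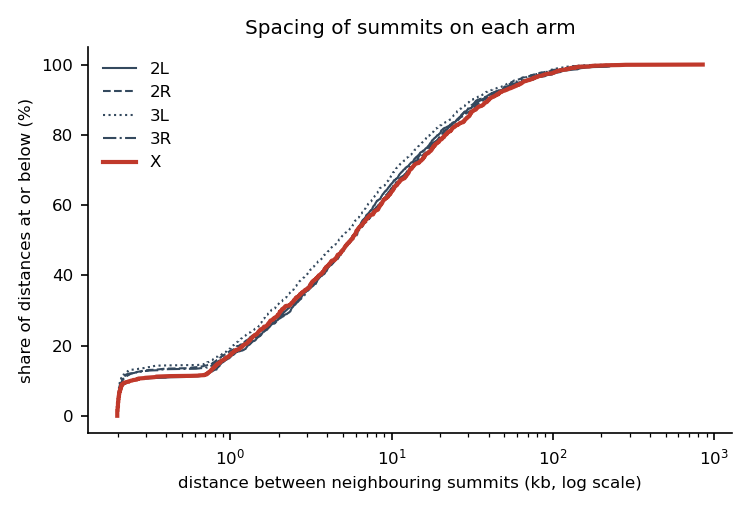
Cumulative share of distances between neighbouring summits (kb, log scale) on the X (red) and on each large autosomal arm (dark lines). The 5 curves lie close together, with medians between 4704 and 5644 bp, and the X curve reaches the longest distance, 851 kb with unknown bases included.

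By region the contrast was large. The first 2 Mb held 44.0 summits per Mb, the part from 2 to 20 Mb 71.4 and the rest 18.1. Replicates 1, 2 and 3 gave 15.2, 17.2 and 20.6 per Mb in that last part, and 69.6, 71.2 and 70.3 in the middle. TSSs were less dense there too, with 107 per Mb against 179, but summits per 100 TSSs also fell, from 40.0 to 16.9. The richest single Mb, from 7 to 8, held 101 summits. The poorest inside the middle part, from 14 to 15, held 35.

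The longest stretch without a summit ran from X 21594055, nearest to lncRNA:CR44711, to 22444608, nearest to CG14621. At 851 kb, unknown bases included, it was the longest between neighbouring summits on any of the 5 large arms, where the next arm, 2R, had 846 kb. Without unknown bases the X stretch is shorter than that of 2R, an arm with 6700 of them in all. In the dm3 list, on the older build, the longest X stretch was 381 kb. The dm6 stretch of 851 kb contained TSSs of 30 coding genes. Unknown bases made up 64320 bp of it and 33.8% of it was marked as repeats, against 21.0% for the X as a whole. The pooled relaxed list, with 30000 peaks, had 5 there, and the longest empty stretch of the replicates, 824, 813 and 815 kb, overlapped it.

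The next stretches were shorter by a factor of 3 or more. One of 282 kb (X 20760622 to 21042805), between lncRNA:CR43838 and Mgstl, the gene of a microsomal glutathione transferase, held 17 coding genes and 20 pooled relaxed peaks. Another of 258 kb (X 22491237 to 22749402), between l(1)G0196 and lncRNA:CR44109, held 7 coding genes and 12 such peaks. In total 34 distances over 100 kb covered 23.2% of the X, within the range of 12.2% to 26.6% over the arms.

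The densest window of 200 kb (X 13200001 to 13400000) had 33 summits, and 34, 31 and 32 in the replicates. Its strongest sites were an intronic one in the integrin gene mew, nearest to CG32639, at rank 137, and those nearest to CG1640, Bcat, which encodes a transaminase of branched-chain amino acids, and RpS15Aa, at ranks 1118, 1219 and 1518. Promoters held 15 and introns 13 of the 33. The strength of its sites was moderate, since a single one was among the strongest 1000.

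A second dense window was different in kind. Between X 7200001 and 7400000 lay 29 summits, and 30, 31 and 30 in the replicates, of which 26 were intronic and 3 at promoters, with 18 TSSs in the window. The leading sites were near brk, CBP, which encodes a calcium-binding protein, Dok, an adaptor protein gene, and unc-119, at ranks 129, 134, 167 and 448. The long gene lncRNA:CR44357 (X 7166451 to 7405797) spans the stretch, with 31 summits in its body, and CG1677 (X 7281089 to 7405797) covers its later part, with 22. Another window, from X 2000001 to 2200000, had 28 summits and 81 TSSs, led by ph-p at ranks 20 and 156, ph-d at 63 and moody, a G protein-coupled receptor gene of the blood-brain barrier, at 678. It tied with windows at 5600001, 6600001 and 12600001, the last of which holds the lncRNA:Vinr summits.

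Over the 117 windows of the X the number of summits and of TSSs had a Spearman's rho of 0.429, a description over windows of the same libraries. Over the windows between the first and last summit it was 0.421, within the 0.228 to 0.483 of the 4 arms. Of all 117 windows, 24 (20.5%) had 20 summits or more, against 15.1% to 24.3% over the 4 arms. Empty windows numbered 6 on the X and 11 to 28 on the arms, with their summit-free ends. Between the first and last summit they numbered 5 on the X and 1 to 4 on the arms. Window counts of replicate pairs had a rho of 0.936 to 0.954 on the X.

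Among single genes, chosen after their values were seen, the body of kirre, a cell adhesion gene of myoblast fusion, held 25 summits over 394 kb. That is 6.34 per 100 kb, close to the density of the whole X, 61.0 per Mb. CHES-1-like held 15 over 27.0 kb, or 55.5 per 100 kb. Raf, the kinase gene of the MAP kinase cascade, held 12 over 48.4 kb, or 24.8 per 100 kb.

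The words searched at summits were the DNA replication-related element DRE (TATCGATA), Motif 1 (GGTCACAC), a GAGA repeat (GAGAGAGA), a CA repeat (CACACACA), an A tract (AAAAAAAA), the TATA box (TATAAA), the BEAF-32 word (CGATA, which is part of the DRE) and a homeodomain core (TAATTA), on both strands within 50 bp. The GAGA and CA repeats are of interest on the X because the high affinity sites of the MSL complex hold GA repeats, and CA repeats are frequent on this chromosome. Windows of the strongest X summits with the DRE, Motif 1 and the GAGA repeat show these words in place, each named by its nearest TSS.

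RpS10b promoter, chrX:19597945-19598045, plus strand: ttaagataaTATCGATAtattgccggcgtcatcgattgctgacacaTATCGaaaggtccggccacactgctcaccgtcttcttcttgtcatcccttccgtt
RpS14a promoter, chrX:7933636-7933736, plus strand: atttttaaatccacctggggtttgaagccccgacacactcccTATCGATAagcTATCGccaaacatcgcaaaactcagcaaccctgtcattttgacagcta
Rnp4F, chrX:5322663-5322763, plus strand: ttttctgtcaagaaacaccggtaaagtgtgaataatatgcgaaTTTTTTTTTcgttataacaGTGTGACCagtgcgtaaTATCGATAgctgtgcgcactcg
Raf, chrX:2302286-2302386, plus strand: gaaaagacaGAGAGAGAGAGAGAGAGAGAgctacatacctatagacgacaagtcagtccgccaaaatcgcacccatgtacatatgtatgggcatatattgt

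The A tract was more frequent on the X. It was in 152 X windows (10.6%), against 6.62%, with 10.8% ± 0.197 and 7.07% ± 0.295 in replicates, and no arm exceeded 7.79%. The difference of 3.96 points was 7.40 within 100 bp of the summit. The flanks of X summits held it as often, in 10.8%, and so did 8.34% of all windows of that length on the X against 4.81% on the autosomal arms. The X summits thus held the A tract no more often than their own flanks. On the autosomal arms it was in 6.62% of summit windows and 4.89% of flanks.

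Repeats of GA and CA were rarer at X summits than beside them. The GAGA repeat was in 10 windows (0.696%), 1.84% of flanks and 0.783% of all X windows, and the CA repeat in 24 (1.67%), 6.05% and 3.02%. On the autosomal arms both were also rarer at summits than beside them. The GAGA repeat was in 0.791% of summit windows there, 1.40% of flanks and 0.523% of all windows. The CA repeat was in 1.58%, 3.62% and 1.91%. The X was within the range of the arms for both words, and the sign of the GAGA difference turned under other settings.

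The DRE, known as the binding sequence of the factor Dref, was in 32 X windows (2.23%) against 0.244% of flanks and 0.350% of all X windows. On the autosomal arms it was in 1.63% of summit windows, 0.202% of flanks and 0.251% of all windows. The replicates gave 2.12% ± 0.111 on the X and 1.62% ± 0.0968 on the autosomal arms together, but 2R alone, at 2.53%, 1.91% and 2.21%, exceeded the X in 2 of 3. The difference of 0.599 points between the X and the autosomal arms was 1.72 at promoters and 0.279 in the strongest 3948 peaks. Motif 1 was in 11 X windows (0.765%) against 1.12%, and in replicates 0.966% ± 0.114 against 1.12% ± 0.0488. The TATA box (22.5% against 22.2%) and the BEAF-32 word (15.3% against 14.7%) were within the range of the arms, and the homeodomain core (10.7% against 9.68%) was just above it, at 10.5% on 3L, and higher on the X in 2 of 3 replicates.

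Words of 7 bases were also taken from the autosomal arms alone, by their excess over flanks, and then counted on the X, a step added after seeing the data. The leading word, AAAATAT, was in 16.7% of autosomal summits and 6.32% of their flanks, and on the X in 15% and 6.51% (14.0% ± 0.741 in replicates). The word TTTAAAA was in 12.7% of X summits and 3.65% of flanks, against 13.6% and 4.68%. All 5 words taken were made of A and T alone, and each was more frequent at X summits than in their flanks. The summit windows on the X also had less GC than the flanks, 32.7% against 42.6%. Whether these words exceed what that base composition gives was not tested.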

How the data were processed

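ChIP-seq peak lists of 3 biological replicates of CG9727-eGFP embryos were analysed. Per the file headers and descriptions, relaxed peaks were called by the authors in each replicate and in the pooled replicates against a control, and a thresholded list was derived by IDR, on dm6 and dm3. For the aligner, peak caller and IDR threshold, names and versions were not given in the sources used here. The deposited signal value of each peak ordered the peaks of a list and gave the medians compared, and the deposited −log10 q value served in 1 alternative. Read depth is unknown from these lists, so no counting interval is given.

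The members, gene lists, words and tests were chosen with earlier results of these data known. Genes and TSSs came from Ensembl release 115, older symbols (4) were matched through RefSeq synonyms, and sequence came from the RefSeq genome of the dm6 build. Each peak was reduced to its summit and given 1 class. Summits within 500 bp of a TSS were promoter summits, and the rest went in order to the UTRs and exons they fell in, then to introns, then to intergenic sequence. A gene was bound when a summit lay within 500 bp of a TSS. Replicates were represented by their 7896 strongest peaks, and matching used 100 bp. Errors are SD over 3 replicates, with a 2-sided exact sign-flip permutation test, and the 4 autosomal arms give the spread between chromosomes. Genes named are those nearest to the 15 strongest X summits, up to 4 in each of the 3 densest windows and the ends of the 3 longest empty stretches, every listed gene of sex determination and dosage, and up to 4 bound and 2 unbound genes of each other list. Further genes, such as those holding many summits, were named after their values were known. Functions were tested on simulated data. Python 3.11.15, pandas 2.3.3, NumPy 2.4.6, SciPy 1.17.1 and matplotlib 3.10.9 were used. Alternatives changed the TSS window, matching distance, list, build, background and reference arm, or left out a replicate.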

Additional observations from a re-analysis of the deposited data

Results flagged for a closer look

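On the dm3 build, which lists unplaced X heterochromatin as a sequence of its own (XHet), the pooled relaxed list had 12 peaks there out of 30000. The relaxed lists of replicates 1, 2 and 3 had 12, 8 and 15. The thresholded dm3 list, with 7284 peaks, had none, and no comparison above used this sequence, which is why it is given here. There are no control samples to set these counts against, and the relaxed lists were made to include background.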

How the results depend on the processing

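Of 136 alternatives, 72 were classed as the same, 46 as moved and 18 as reversed. The first class does not mean an unchanged size. It includes the median signal ratio, 0.963 and 1.00 with the −log10 q value. It also includes the GAGA difference averaged over replicates, 0.161 points and 0.0138 without replicate 1. The density ratio of 1.03 turned to 0.952 on dm3, 0.986 in the strongest 3948 peaks, 0.903 between the first and last summits and 0.961 against 3L. It was 1.06 for pooled relaxed peaks, 1.05 for merged intervals, 1.12 per TSS, 1.01 against 2L and 1.14 against 2R. The promoter difference of −4.93 points was −6.69 with a 200 bp window, −6.03 in the strongest peaks, −4.00 with coding TSSs, −10.6 against 2R and −5.92 against 3R, and turned to 0.513 against 3L. The spacing ratio was 1.00 for merged intervals and 1.1 in the strongest peaks. The recovery difference of −0.541 points turned to 0.758 at 50 bp and 3.05 in the whole relaxed lists. It was −2.33 at 250 bp, −1.33 with fewer replicate peaks, and −0.778 to 0.186 when a replicate was left out, the sign turning without replicate 3. The share of bound coding genes turned from 0.740 points above the autosomal arms to −1.88 with 200 bp and −1.40 in the strongest peaks.

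The intron difference of 11.3 points kept its direction under all alternatives run, at 9.78 for coding gene bodies, 13.0 and 9.65 with 200 bp and 1 kb windows, 13.9 in the strongest peaks, and 13.2, 12.1 and 8.86 against 2L, 3L and 3R. The intergenic difference of −7.35 was −5.83 for coding gene bodies, −6.37 with 1 kb, −9.39 in the strongest peaks, and −9.35, −1.69, −13.9 and −3.72 against 2L, 2R, 3L and 3R. These 2 sets were chosen after seeing the data. Among words, the GAGA repeat turned to 0.204 within 100 bp, 0.209 at promoters and 0.0764 in the strongest peaks, the CA repeat to −0.536 at promoters, the TATA box to −2.22 within 100 bp and −3.14 at promoters, the BEAF-32 word to −0.745 in the strongest peaks and the homeodomain core to −0.216 at promoters. The longest empty stretch was 381 kb on dm3, 824, 813 and 815 kb in the replicates and 813 kb in pooled relaxed peaks. The densest window held 38.0 and 21.6 summits per 200 kb with windows of 100 and 500 kb, and 31.0 in replicate 2. The causes were not tested. The X and the autosomal arms were compared within replicates throughout, and with 1 group no samples could be paired between groups. Peak lists without read counts or a matched strain limit what can be said of weak sites.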
